A study of Mus musculus with 4 samples.

Results

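The histone genes of the count table were taken by name. They are the 37 protein-coding genes, of 19353 genes in all, whose names begin with Hist1h to Hist4h (26 clustered genes) or with H2af, H3f3 or H1f (11 variant genes). The annotation used here (GENCODE M21, GRCm38) lists 82 protein-coding genes with such names. The other 45, of which 41 are clustered and 4 variant, have no row in the table and were not analysed here. The libraries came from muscle satellite cells (MuSCs) sorted by YFP from plantaris muscle of Pax7-CreERT2:Rosa-YFP mice, in which a Cre recombinase made from the Pax7 locus and switched on by tamoxifen marks the cells. The 2 overloaded libraries were made 4 days after tenotomy, in which the Achilles tendon is severed and the plantaris carries the load, and the 2 sham libraries from sham-operated plantaris. All 4 share the genotype and the tamoxifen treatment, and each is a tube of 100 cells. Whether the tubes came from separate mice or from both legs of the same mice, and the age of the mice for these libraries, are not given in the sources used here, so p-values measure the spread between these tubes, which may be technical. In other tenotomy experiments of the study the sham muscle was that of the opposite leg.

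Histones are the proteins around which DNA is wound: H2A, H2B, H3 and H4 form the core of the nucleosome, and H1 binds the linker between cores. Clustered histone genes are transcribed mainly in S phase, when new DNA needs new nucleosomes, and most of their mRNAs end in a conserved stem-loop in place of a poly(A) tail. Variant genes such as those of H3.3 and H2A.Z lie alone, have introns in many cases, give polyadenylated mRNA and are expressed outside S phase as well. MuSCs rest outside the cell cycle in unloaded adult muscle and enter it when the muscle is overloaded or injured. The assay (CEL-Seq2) primes on poly(A) tails and counts the 3′ ends of mRNA by unique molecular identifiers (UMIs). The counts below are taken to be of polyadenylated histone mRNA, which was not tested, and a level is not divided by transcript length.

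Total UMIs were 269683 and 260488 in sham and 387955 and 483528 in overloaded libraries. Levels are given in CPM, UMI counts per 1000000 after scaling by edgeR's TMM factors. A single UMI was worth 4.35 and 4.53 CPM in sham and 2.60 and 2.03 CPM in overloaded libraries. Libraries of 1 group were more alike than libraries of different groups: the chi-square of gene counts divided by its degrees of freedom was 1.31 between the sham and 1.4999 between the overloaded libraries, against 6.34 to 7.86 between groups. All 11 MuSC marker genes listed were measured, among them Pax7, the transcription factor that defines the lineage, with 118 and 107 UMIs in sham and 108 and 137 in overloaded libraries. In the fit described below, in which 25.8% of all genes were called higher and 26.3% lower, 2 of these 11 were called higher and 7 lower, Pax7 among them (log2 fold change -0.84, edgeR adjusted p = 0.000635). With library sizes alone 4 were called higher and 7 lower, and with UMIs per tube, and likewise with loess offsets, which take out any trend of fold change with abundance, 4 higher and 3 lower. The 12 leukocyte markers summed to 2 and 6 UMIs in sham and 72 and 179 in overloaded libraries (8.71, 27.2, 187 and 362 CPM), and 9 of the 12 were at 0 in both sham libraries. Their most abundant gene, Lyz2, had 0, 0, 17 and 38 UMIs, and Ptprc, which defines leukocytes, had 0, 1, 1 and 4. The 7 endothelial markers summed to 11, 4, 38 and 40 UMIs, with Cdh5 the most abundant. The 7 fibroblast markers together, led by Col3a1, summed to 939, 867, 1221 and 1359 UMIs, or 4087, 3928, 3175 and 2752 CPM, and of 5 tested 3 were called lower and 1 higher, Ly6a, with 1, 0, 22 and 41 UMIs (log2 fold change 4.79, edgeR adjusted p = 0.000109). The calls were 1 higher and 1 lower with library sizes alone, 4 and 1 with UMIs per tube, and 2 and 1 with loess offsets. Pdgfra, which defines fibroblasts, had 0, 0, 2 and 0 UMIs. The 7 mural markers, led by Acta2, summed to 177, 154, 463 and 679 UMIs, or 770.4, 698, 1204 and 1375 CPM, and the 8 myofiber markers, led by Acta1, to 326, 175, 1082 and 1281 UMIs, or 1419, 793, 2813 and 2594 CPM. Of the 3 mural markers tested 2 were called higher and 1 lower, and likewise with loess offsets. With library sizes alone, and with UMIs per tube, 2 mural markers were called higher and 0 lower. The 5 myofiber markers tested were called higher with TMM and under the 3 other scalings. Ly6a, the mural marker Rgs5 and the myofiber marker Myh4, and both leukocyte markers tested, entered the test only through their overloaded counts. The part of these cell types in the histone values was not tested, and in such tubes fewer cells of a type and less RNA per cell cannot be told apart.

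Clustered histone mRNA took a larger share of histone mRNA in overloaded than in sham libraries, while the summed level of all 37 genes after TMM scaling was within 1589 to 1685 CPM in the 4 libraries. That total rests on the scaling: the 37 genes held 0.135% and 0.141% of the library's UMIs in sham and 0.167% and 0.163% in overloaded libraries, and their UMIs per tube were 365, 366, 648 and 788. The clustered genes had 16 and 22 UMIs in sham and 117 and 138 in overloaded libraries. Their summed level was 69.6 and 99.7 CPM in sham and 304 and 279 in overloaded libraries, or 84.7 ± 21.2 against 292 ± 17.5 (SD, n = 2 each), a ratio of 3.45. Both overloaded libraries lay above both sham libraries. Most of these UMIs came from 2 genes: of 255 in the overloaded pair, Hist1h2bc gave 109 and Hist1h1c 76, and the other 24 clustered genes gave 70. The variant genes had 349 and 344 UMIs in sham and 531 and 650 in overloaded libraries, and summed levels of 1519, 1558, 1381 and 1316 CPM. Their ratio of 0.876 rests on the scaling: the raw UMIs per tube were higher after overload.

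As a share of the histone UMIs of each library, the clustered genes held 4.38% (95% Clopper-Pearson interval 2.53 to 7.02) and 6.01% (3.80 to 8.96) in sham, and 18.1% (15.2 to 21.2) and 17.5% (14.9 to 20.4) in overloaded libraries. This share needs no scaling between libraries, and the intervals, which cover counting error only, of the sham libraries end below those of the overloaded libraries. Without Hist1h2bc, the most abundant clustered gene, the shares were 1.13% (0.310 to 2.88) and 4.18% (2.36 to 6.80) in sham, and 12.1% (9.59 to 14.96) and 10.1% (7.998 to 12.5) in overloaded libraries. The share without Hist1h1c as well was not computed. The 24 clustered genes then left had 1 and 12 UMIs in sham and 34 and 36 in overloaded libraries, so the larger share is not shown for them. No test was made of the shares above. An exact two-sided permutation test of 2 against 2 libraries cannot give a p under 0.333, and no other test was tried.

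**Figure D1:**
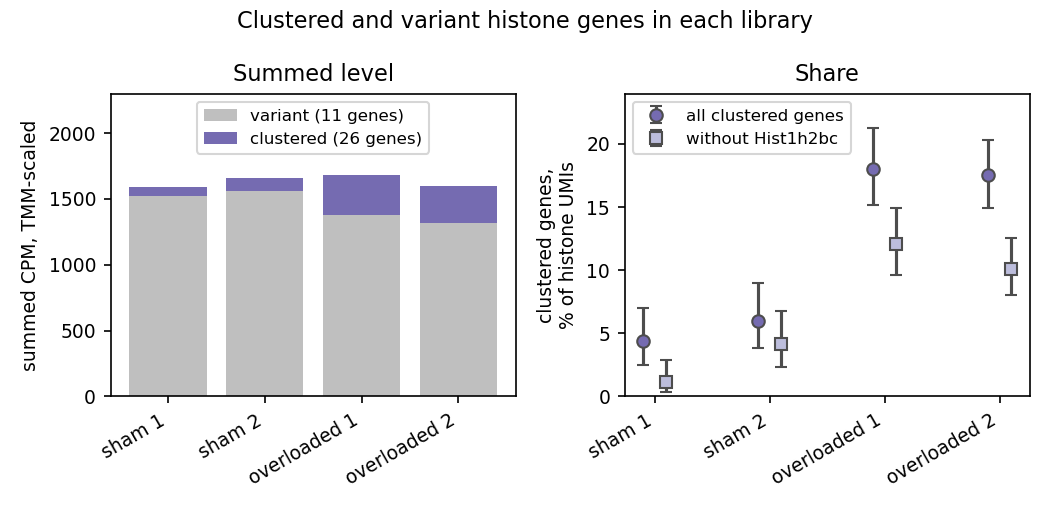
Left, summed level of the 11 variant and 26 clustered histone genes in each library, in CPM after TMM scaling. Right, percent of each library's histone UMIs that came from clustered genes, with and without Hist1h2bc, with 95% Clopper-Pearson intervals as error bars; the shares were 4.38% and 6.01% in the sham libraries and 18.1% and 17.5% in the overloaded libraries.

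Of the 37 genes, 10 had enough UMIs to be tested in the fit over all genes, 2 of 26 clustered and 8 of 11 variant genes. The test was the quasi-likelihood test of edgeR, adjusted over 7228 genes by Benjamini-Hochberg, and genes with an adjusted p under 0.1 were called. Over all these genes 25.8% were called higher and 26.3% lower after overload, and both overloaded libraries lay above both sham libraries for 37.5% and below them for 35.4%. Among the tested histone genes, both clustered genes and 3 variant genes rose, 3 variant genes fell, though the calls of these 3 depend on the scaling as given below, and 2 variant genes did not pass. The median log2 fold change was 0.19 over the 8 tested variant genes and 0.05 over all genes tested. This variant median moved with the settings. It was 0.46 with library sizes alone and 1.15 with UMIs per tube, where that of all genes was 0.33 and 1.01. Without sham 1 the variant median was 0.06, and with no filter on low counts it was 0.56 over all 11 variant genes. Hist1h2bc, Hist1h1c and the variant H2afj would not have been kept on their sham counts alone, and H3f3a would not have been kept on its overloaded counts alone, so their presence among the tested genes already leans on one group. Of the 7 tested histone genes kept on sham counts alone, 2 were called higher (28.6%), beside 13.6% of all genes so kept.

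**Figure D2:**
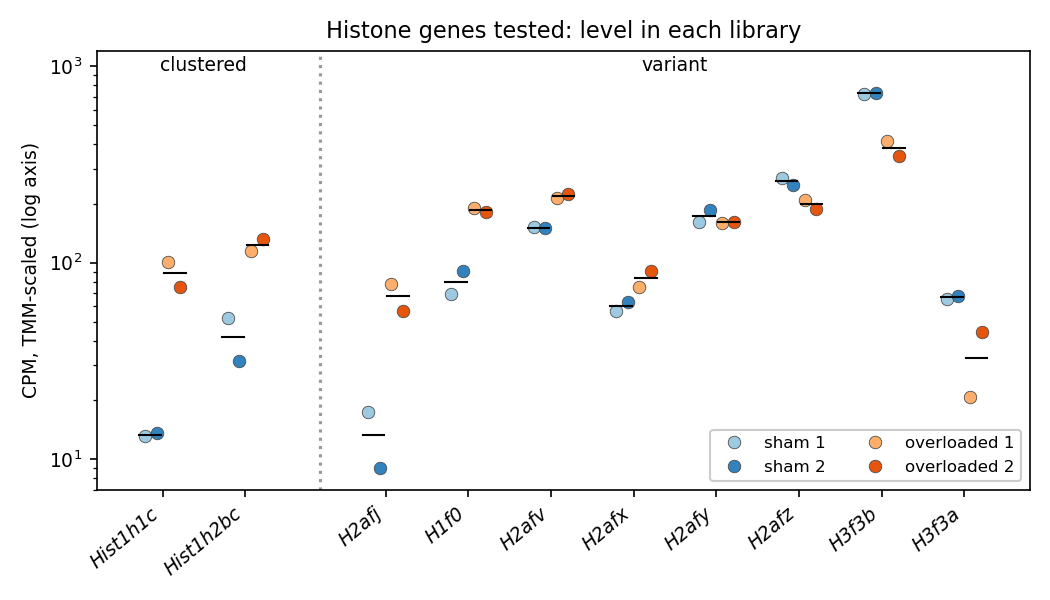
Level of each tested histone gene in each library, in CPM after TMM scaling on a log axis, with group means as bars (2 libraries per group); clustered genes are left and variant genes right of the dotted line. For Hist1h1c, Hist1h2bc, H2afj, H1f0, H2afv and H2afx both overloaded libraries lay above both sham libraries, and for H2afy the groups overlapped.

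Hist1h1c (ENSMUSG00000036181) encodes the linker histone H1.2 and lies in the large histone cluster at chr13:23738808-23740367 (GRCm38, plus strand), with no overlapping gene in the annotation. It had 3 and 3 UMIs in sham and 39 and 37 in overloaded libraries, or 13.1, 13.6, 101 and 74.9 CPM. The groups did not overlap. Its level rose from 13.3 ± 0.376 to 88.2 ± 18.7 CPM (SD, 2 libraries a group), or by 2.67 on the log2 scale (SE 0.48, edgeR adjusted p = 0.000286). Without sham 1, the value of H2afj (below) was larger, 2.80 against 2.62.

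Hist1h2bc (ENSMUSG00000018102), a core H2B gene of the same cluster, had 12 and 7 UMIs in sham and 44 and 65 in overloaded libraries, or 52.2, 31.7, 114 and 132 CPM. It was high in both overloaded libraries and rose from 42.0 ± 14.5 to 123 ± 12.2 (log2 fold change 1.54, SE 0.34, edgeR adjusted p = 0.00141). Its annotated coding transcript is spliced, which is unusual for a clustered gene: exon 1 lies at chr13:23684199-23684621 and exon 2 at chr13:23692176-23692908 (GRCm38, plus strand). Of the stretches of 50 bases in this transcript, 30.1% also occur in other genes, but in its last 300 bases, nearest the annotated 3′ end, 3.19% do. How the authors' counting treated reads that fit several genes is not given in the sources used here, and this gene's count is uncertain to that extent. Both clustered genes passed the threshold in the same direction under all 17 alternative settings tried. For 1 of these settings, a prior count of 2, the p-values were those of the main fit.

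The remaining 24 clustered genes had 1 to 18 UMIs each over the 4 libraries and were not tested. Summed, they had 1 and 12 UMIs in sham and 34 and 36 in overloaded libraries, or 4.35, 54.4, 88.4 and 72.9 CPM, so the sham libraries differed from each other by more than the overloaded libraries did. Of these 24 genes, 23 had more UMIs in the overloaded pair of libraries and 1, the H3 gene Hist2h3c2 (0, 2, 0 and 0 UMIs in sham 1, sham 2, overloaded 1 and overloaded 2), had more in the sham pair. These are raw counts, and the overloaded pair is the deeper one. In mean CPM, Hist1h1d (4.44 in sham, 3.33 in overloaded), Hist1h2be (6.80 and 4.91) and Hist4h4 (2.265 and 2.03) were lower after overload too. The share of all genes with more UMIs in the overloaded pair was not counted. No sham UMI was seen for 17, and 13 had a single UMI in all. The number of clustered genes with a UMI was 3 and 9 in sham and 18 and 16 in overloaded libraries. Over all genes it was 13455 and 13437 in sham and 15476 and 15816 in the deeper overloaded libraries.

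A few of the untested genes are named here after their values were seen. Hist1h4i, an H4 gene, had 0, 1, 6 and 10 UMIs in sham 1, sham 2, overloaded 1 and overloaded 2, a ratio of levels of 8.21 with a counting interval of 1.27 to 344. Hist3h2a, an H2A gene outside the large cluster, had 0, 3, 6 and 9 UMIs, a ratio of 2.56 with an interval of 0.725 to 13.8. It shares its strand with the overlapping gene Trim17, and reads of the 2 genes may not be told apart. Hist1h2be, an H2B gene, had 0, 3, 3 and 1 UMIs, a ratio of 0.684 (0.116 to 4.67). Hist1h2ap, an H2A gene, had 0, 0, 4 and 3, or 1.20 times the level of a floor of 3 UMIs over the sham pair. That fold takes the overloaded count as exact, and Hist1h2ap was not called with no filter on low counts (edgeR adjusted p = 0.175). All stretches of 50 bases in the last 300 of Hist1h2ap also occur in other genes, so its UMIs cannot be assigned to it with certainty, and Hist1h2be shares its strand with the overlapping Hist1h1e and Gm11398. The intervals of Hist3h2a and Hist1h2be include a ratio of 1, so no difference was detectable for them at this depth. With no filter on low counts, in which all 19353 genes were fitted, Hist1h4i was the 1 further clustered gene called (edgeR adjusted p = 0.034).

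By protein family, the clustered genes without a tested member were those of H2A, H3 and H4. The 7 clustered H2A genes summed to 0, 3, 13 and 17 UMIs in sham 1, sham 2, overloaded 1 and overloaded 2, and the 3 H4 genes to 0, 2, 7 and 12. The 5 clustered H3 genes summed to 0, 2, 4 and 1 UMIs. The replication-type H3 mRNA was thus seen by 7 UMIs in all, against 182 and 177 UMIs of H3.3 in sham and 168 and 195 in overloaded libraries, and its level could not be compared at this depth. The 5 clustered H1 genes had 4, 4, 42 and 40 UMIs, of which all but a few were Hist1h1c, and the 6 H2B genes 12, 11, 51 and 68, mostly Hist1h2bc.

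The annotated transcripts of these genes were searched for the stem-loop. The poly(A) sites and read positions behind the UMIs were not examined. A stem-loop of the histone type, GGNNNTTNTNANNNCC with 6 base pairs in the stem, occurs in the longest coding transcript of 20 of 26 clustered genes and of 1 of 11 variant genes, H2afx. In the whole annotation 69 of 21901 protein-coding genes (0.315%) have it in some coding transcript. The lines below give the stem-loop, in capitals, with 7 bases on each side or up to the transcript's end, for the stem-loop genes with the most UMIs, to show how alike the element is between genes whose counts differ. Sequences are from GENCODE M21.
Hist1h1c: tccaaaaGGCTCTTTTCAGAGCCaccactc
H2afx: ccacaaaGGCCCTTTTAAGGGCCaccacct
Hist3h2a: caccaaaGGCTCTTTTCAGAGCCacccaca
Hist1h4i: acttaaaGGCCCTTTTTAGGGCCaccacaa
Hist1h2be: aaccaaaGGCTCTTTTCAGAGCCacccaac
Hist1h2ap: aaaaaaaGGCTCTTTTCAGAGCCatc

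What lies after the element differs more. The annotated transcript of Hist1h1c goes on for 840 bases, that of H2afx for 822, that of Hist1h4i for 330, that of Hist3h2a for 1643 and that of Hist1h2be for 1861, whereas that of Hist1h2ap ends 3 bases after the stem-loop. The 11 clustered genes with at least 300 annotated bases after the stem-loop had 138 UMIs (18 in sham and 120 in overloaded libraries, median 3 a gene), and the 9 with fewer had 19 UMIs (0 and 19, median 1). The 6 clustered genes with no stem-loop in the longest coding transcript had 136 UMIs, of which 128 were Hist1h2bc. The limit of 300 bases was chosen after the counts were seen, and Hist1h1c alone gave 82 of the 138 UMIs, so these sums only describe which genes the assay counted.

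**Figure D3:**
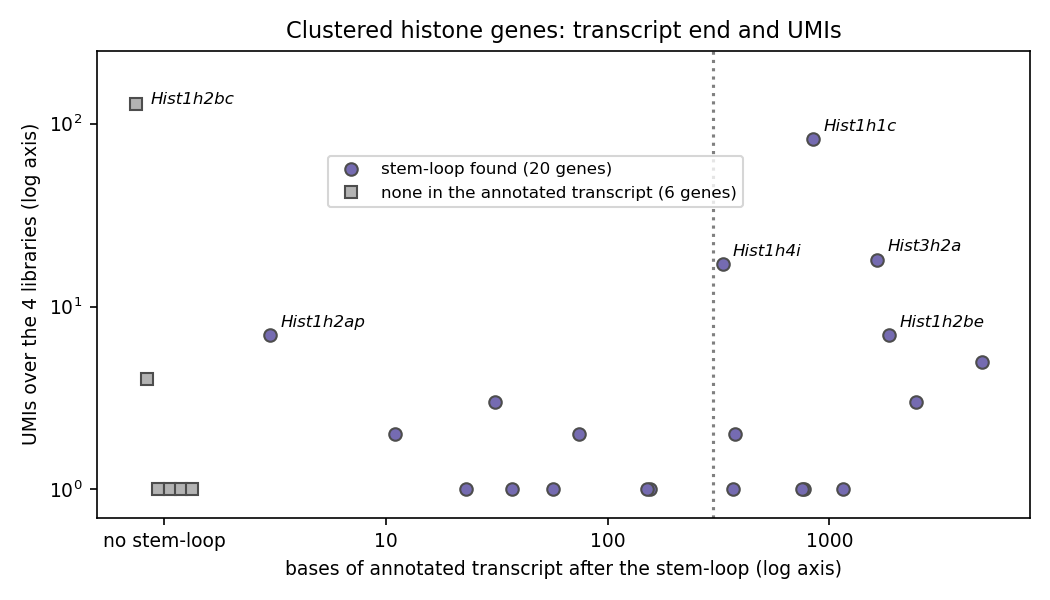
UMIs over the 4 libraries for each clustered histone gene (log axis) against the annotated bases after its stem-loop (log axis); squares at the left are the 6 genes with no stem-loop in the annotated coding transcript, and the dotted line is at 300 bases. Hist1h1c and Hist1h2bc, with 82 and 128 UMIs, stand apart from the other clustered genes, which have 18 or fewer.

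Promoters were read from RefSeq (GRCm38.p6), which gave windows from 250 bases before to 50 after the start for 32 of the 37 genes, 33 windows in all. The 4 motifs searched, on both strands, were CCAAT, bound by NF-Y, the octamer ATTTGCAT, bound by Oct1 and typical of H2B genes, AAACACA, known as the H1 box, and TATAAA, the TATA box. CCAAT was in 91.3% of clustered and 70.0% of variant windows against 37.4% of all 32851 windows, and TATAAA in 60.9% of clustered windows, 1 of 10 variant windows and 13.6% of all. The octamer was in 30.4% of clustered windows and 1 of 10 variant windows (1.74% of all), and in 3 of the 5 clustered H2B windows. Windows are not all independent: Hist1h2be has a window with the octamer and a window without it. Those of Hist1h2bg and Hist1h2ae overlap and hold the same octamer. Hist1h2bc had no window. AAACACA was in 4 of 8 H1 windows against 7.18% of all. Hist1h1c has AAACACA 112 bases and CCAAT 54 bases before the start. The Hist1h1c window, chr13:23738557-23738856 (GRCm38.p6, plus strand), is printed with both motifs in capitals. It was chosen because, of the 10 tested histone genes, Hist1h1c had the largest change with TMM scaling.
Hist1h1c promoter: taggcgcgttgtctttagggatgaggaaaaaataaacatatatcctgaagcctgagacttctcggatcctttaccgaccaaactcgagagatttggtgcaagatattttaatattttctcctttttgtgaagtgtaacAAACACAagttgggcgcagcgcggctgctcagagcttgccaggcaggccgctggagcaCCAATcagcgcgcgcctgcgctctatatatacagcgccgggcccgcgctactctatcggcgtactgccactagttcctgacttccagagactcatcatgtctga

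Among the variant genes, H1f0 encodes the replacement linker histone H1.0, which accumulates in many resting and differentiated cells. It had 16 and 20 UMIs in sham and 73 and 89 in overloaded libraries, or 69.6, 90.6, 190 and 180 CPM. The groups did not overlap, and its level rose from 80.1 ± 14.8 to 185 ± 6.77 CPM (log2 fold change 1.20, SE 0.25, edgeR adjusted p = 0.000999). Together, H1f0 and Hist1h1c were at 93.4 ± 15.2 CPM in sham and 273 ± 25.5 CPM in overloaded libraries, a ratio of 2.92, and Hist1h1c made up 15.8% and 13.04% of the pair in sham and 34.8% and 29.4% in overloaded libraries. The intervals of these shares overlapped between groups, reaching 39.6% in sham 1 and starting at 21.6% in overloaded 2. A predicted gene, Gm49544, overlaps H1f0 on the other strand, and the strand setting of the counting is not given in the sources used here. The same limit holds for H2afj, H3f3a, H2afx and H2afy, which also overlap genes on the other strand.

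H2afj encodes H2A.J, an H2A variant. It had 4 and 2 UMIs in sham and 30 and 28 in overloaded libraries, or 17.4, 9.06, 78.0 and 56.7 CPM. Both overloaded libraries were high, and the level rose from 13.2 ± 5.91 to 67.4 ± 15.1 (log2 fold change 2.29, SE 0.51, edgeR adjusted p = 0.00178). H1f0 and H2afj passed the threshold in the same direction under all 17 alternative settings.

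The 2 genes of H2A.Z, the variant found at promoters, had log2 fold changes of opposite sign with TMM scaling, and both were positive with UMIs per tube. H2afv (H2A.Z.2) had 35 and 33 UMIs in sham and 82 and 111 in overloaded libraries, or 152, 149, 213 and 225 CPM, and rose with a log2 fold change of 0.54 (SE 0.21, edgeR adjusted p = 0.0414). This call was lost when sham 1 (adjusted p = 0.19), sham 2 (0.22) or overloaded 2 (0.11) was left out, and with DESeq2 (0.32). H2afz (H2A.Z.1) had 62 and 55 UMIs in sham and 80 and 93 in overloaded libraries, or 270, 249.2, 208 and 188 CPM, and fell by 0.39 on the log2 scale (SE 0.19, edgeR adjusted p = 0.0978). This call held in 4 of 17 alternatives, among them the prior count of 2, which could not alter it. UMIs per tube without scaling gave a call in the opposite direction, 0.56 (adjusted p = 0.068). Summed, both genes were at 422 and 399 CPM in sham and 421 and 413 in overloaded libraries, a ratio of 1.02. The share of H2afv in the pair needs no scaling and was 36.1% (26.6 to 46.5) and 37.5% (27.4 to 48.5) in sham, and 50.6% (42.7 to 58.6) and 54.4% (47.3 to 61.4) in overloaded libraries. The sham shares were lower than the overloaded ones, and the intervals of single libraries overlapped except those of sham 1 and overloaded 2. H2afz shares 33.2% of its stretches of 50 bases with other genes over the whole transcript but none in its last 300 bases.

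The 2 genes of H3.3, the H3 that is laid down outside replication, fell on the TMM scale but not in UMIs per tube. H3f3b had 167 and 162 UMIs in sham and 160 and 173 in overloaded libraries, so the raw UMIs per tube were nearly equal, while the levels were 727, 734, 416 and 350 CPM. Its level fell from 730.4 ± 4.91 to 383 ± 46.4 (log2 fold change -0.94, SE 0.16, edgeR adjusted p = 0.000218), but the log2 fold change was -0.15 (adjusted p = 0.42) with loess offsets and 0.02 (adjusted p = 0.93) with UMIs per tube unscaled. H3f3b was the histone gene with the most UMIs, 662 over the 4 libraries, and passed the threshold in the other 15 alternatives. H3f3a had 15 and 15 UMIs in sham and 8 and 22 in overloaded libraries, or 65.3, 68.0, 20.8 and 44.6 CPM. It was lowest in overloaded 1 and fell by 0.97 on the log2 scale (SE 0.41, edgeR adjusted p = 0.0665), but UMIs per tube unscaled gave a log2 fold change of 0. The call held in 8 of 17 alternatives and was lost with library sizes alone (adjusted p = 0.18), DESeq2 (0.32), no filter on low counts (0.14), thinning to the smallest library (0.16), and without sham 1 (0.12) or sham 2 (0.15). Leaving out overloaded 1 gave -0.55 (adjusted p = 0.36), and leaving out overloaded 2 gave -1.62 (adjusted p = 0.026). Both H3.3 genes encode the same protein, and their sum was 792 and 802 CPM in sham and 437 and 395 in overloaded libraries. H3f3a made up 8.24% and 8.47% of this pair in sham and 4.76% and 11.3% in overloaded libraries, so that the overloaded libraries lay on either side of the sham libraries.

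H2afx encodes H2A.X, which is phosphorylated at DNA breaks, and is the variant gene with a stem-loop. It had 13 and 14 UMIs in sham and 29 and 45 in overloaded libraries, or 56.6, 63.4, 75.4 and 91.1 CPM, and the groups did not overlap. Its log2 fold change of 0.48 (SE 0.33, edgeR adjusted p = 0.252) did not pass the threshold, and it passed in 2 of 17 alternatives, library sizes alone and UMIs per tube. H2afy encodes macroH2A1, a large variant known for silent chromatin. It had 37, 41, 61 and 80 UMIs and levels of 161, 186, 159 and 162 CPM, the groups overlapped, and the log2 fold change of -0.11 (SE 0.21, edgeR adjusted p = 0.703) had no fixed sign across scalings. Its 95% interval ran from -0.56 to 0.34. Of the 3 variant genes not tested, H1fx (H1.10) had 0, 0, 4 and 7 UMIs, or 1.88 times the level of the floor of 3 UMIs over the sham pair. H2afy2 (macroH2A2) had 0, 0, 4 and 2, or 1.03 times that floor, with the overloaded count taken as exact. H1foo, the oocyte linker histone, had 0, 2, 0 and 0 UMIs. With no filter on low counts, H1fx was called as well (edgeR adjusted p = 0.033), but H2afy2 was not (edgeR adjusted p = 0.253).

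**Figure D4:**
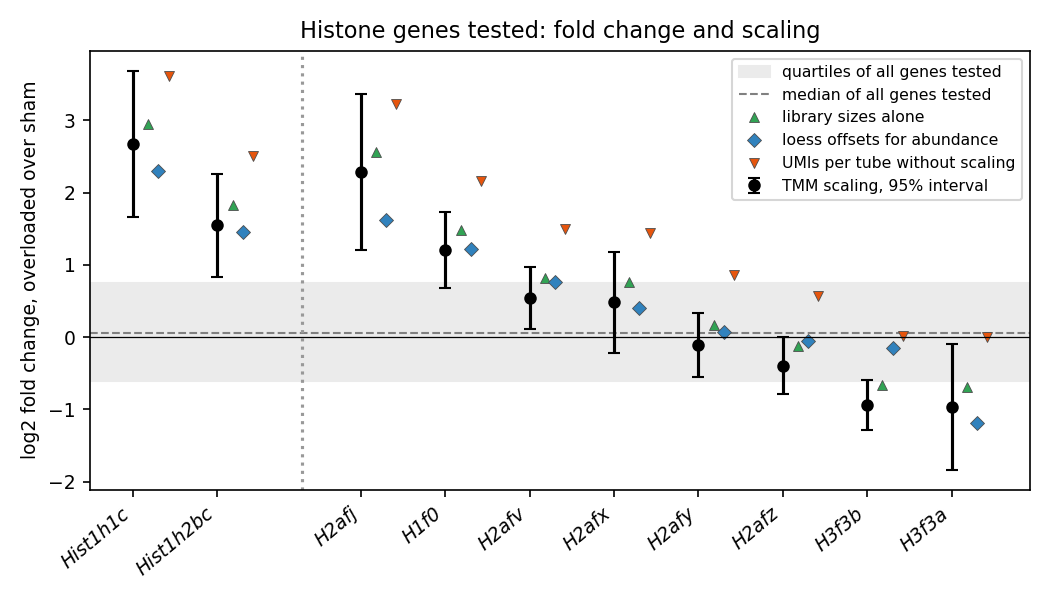
Log2 fold change of overloaded over sham for each tested histone gene with TMM scaling (black, 95% interval) and under 3 other scalings, with the median (dashed) and quartiles (grey band, -0.61 to 0.75) of all genes tested. Hist1h1c, Hist1h2bc, H2afj and H1f0 lie above the band under all 4 scalings. H2afz, H2afy and H3f3b change sign between scalings, and H3f3a goes to 0 without scaling. The dashed line and band are those of TMM scaling only. The median of all genes was 0.33 with library sizes alone, 1.01 with UMIs per tube and 0.02 with loess offsets.

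The genes that carry, process and accompany histones were described by lists. Of all 7228 genes tested, 2041 would not have been kept on their sham counts alone, and of the 5187 that would, 13.6% were called higher, so the genes of a list that were kept on sham counts alone are given as well. S phase genes were called higher in 16 of 17 tested and lower in none, beside 25.8% and 26.3% over all genes tested. Their median log2 fold change was 2.37 (with loess offsets 1.37, and 12 of 17 called higher). Of these 17, 13 entered the test only through their overloaded counts, all 13 were called higher, and their count is thus partly set by the filter. Of the 4 kept on sham counts alone, 3 were called higher. Cdc45, a part of the replicative helicase, had 0, 0, 20 and 33 UMIs in sham 1, sham 2, overloaded 1 and overloaded 2, or 9.06 times the floor of 3 sham UMIs. Tyms, which makes thymidylate, had 0, 1, 17 and 33, and the helicase gene Mcm6 had 2, 1, 44 and 42 (ratio of levels 14.7). Pcna, the sliding clamp, was the 1 tested gene that did not pass, with 40, 34, 48 and 63 UMIs (log2 fold change -0.38, SE 0.22, edgeR adjusted p = 0.184). The other 12 S phase genes called rose with smaller log2 fold changes than these and Mcm2, which is given with the chaperones.

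Of the replication-coupled histone chaperones, which bring new H3 and H4 to the fork, 9 of 13 were tested, and 3 rose (33.3%, against 25.8% of all genes) and 2 fell (22.2%, against 26.3%), with a median log2 fold change of 0.56. The 3 that rose entered the test only through their overloaded counts, and none of the 5 kept on sham counts alone was called higher. Asf1b, which hands H3 and H4 dimers on, had 0 and 0 UMIs in sham and 26 and 41 in overloaded libraries, or 11.5 times the floor of 3 sham UMIs. Mcm2, a helicase subunit that also holds histones, had 0, 2, 36 and 37 UMIs (ratio of levels 18.7), and the H3 and H4 co-chaperone Dnajc9 rose by a log2 fold change of 1.73 (SE 0.48, edgeR adjusted p = 0.00779). Nasp, which holds the soluble H3 and H4 pool, had 64 and 58 UMIs in sham and 72 and 76 in overloaded libraries and fell by 0.68 on the log2 scale (SE 0.20, edgeR adjusted p = 0.00961) after scaling, though its UMIs per tube were higher. The largest subunit of the CAF-1 chaperone, Chaf1a, had 0, 0, 3 and 0 UMIs, too few to be tested, and the other subunits are not described here. Hat1, which acetylates new H4, did not pass (log2 fold change 0.56, SE 0.28, edgeR adjusted p = 0.113), nor did the importin Ipo4 (log2 fold change -0.36, SE 0.32, edgeR adjusted p = 0.374).

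Chaperones and remodellers of the replication-independent and variant histones were called about as often as all genes (25.8% higher and 26.3% lower): of 16 tested, 4 rose and 4 fell, with a median log2 fold change of 0.16. Of the 12 kept on sham counts alone, 2 rose. Of the genes named here, Ruvbl2 was kept only through its overloaded and Srcap only through its sham counts. Ruvbl2, an ATPase of several remodellers, rose by 1.77 on the log2 scale (SE 0.43, edgeR adjusted p = 0.00318). Ubn1, a subunit of the HIRA complex that deposits H3.3, had 94 and 116 UMIs in sham and 70 and 101 in overloaded libraries and fell by 1.26 on the log2 scale (SE 0.18, edgeR adjusted p = 4.14e-05). Srcap, the remodeller that inserts H2A.Z, had 10, 13, 13 and 5 UMIs and fell by 1.30 on the log2 scale (SE 0.49, edgeR adjusted p = 0.0410). The H2A.Z chaperone Anp32e (log2 fold change 0.08) and the remodeller Atrx (-0.38) did not pass. Of the 13 general chaperones, all tested, 2 rose (15.4%, against 25.8% of all genes) and 3 fell (23.1%, against 26.3%), with a median of -0.23 (of the 12 kept on sham counts alone, 2 rose), but 5 rose and 1 fell with loess offsets and 8 rose and 0 fell with UMIs per tube. Spty2d1 (log2 fold change -0.87) and nucleolin, Ncl (-0.79), fell and Ssrp1 of the FACT complex (0.58) and Nap1l4 (0.68) rose, while Npm1 (-0.21) and Nap1l1 (-0.03) did not pass.

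Of 15 tested genes for the 3′ processing and turnover of histone mRNA, 7 rose (46.7%, against 25.8% of all genes) and 2 fell (13.3%, against 26.3%), with a median log2 fold change of 0.62. Of the 10 kept on sham counts alone, 4 rose, and Lsm10, Eri1 and Ncbp1 entered the test only through their overloaded counts. The U7 snRNP protein gene Lsm10 rose by 1.95 on the log2 scale (SE 0.58, edgeR adjusted p = 0.0122), the stem-loop exonuclease gene Eri1 by 1.42 (SE 0.39, edgeR adjusted p = 0.00687), the endonuclease gene Cpsf3 by 1.30 (SE 0.36, edgeR adjusted p = 0.00730) and the cap-binding gene Ncbp1 by 1.25 (SE 0.42, edgeR adjusted p = 0.0240). Slbp, whose protein binds the stem-loop itself, had 19 and 14 UMIs in sham and 24 and 23 in overloaded libraries and did not pass (log2 fold change -0.44, SE 0.35, edgeR adjusted p = 0.320), nor did Snrpb (-0.25) and Fip1l1 (-0.11).

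Of 11 tested genes of the high mobility group and other chromatin proteins, 5 rose (45.5%, against 25.8% of all genes) and none fell (26.3% of all genes), with a median of 0.36. Of the 6 kept on sham counts alone, 1 rose. Cenpa, the H3 variant of centromeres, whose name lies outside the rule for histone genes used here, had 3 and 3 UMIs in sham and 80 and 117 in overloaded libraries, and its log2 fold change of 4.03 (SE 0.36, edgeR adjusted p = 4.04e-07) stood beside values of -0.97 to 2.67 for the 10 tested histone genes. Like Hmga2 and Hmgb3, it entered the test only through its overloaded counts. Hmga2, an architectural protein of proliferating cells, had 0, 0, 52 and 58 UMIs, or 18.8 times the floor of 3 sham UMIs. Hmgb3 (log2 fold change 1.74) and Cbx5 (1.14), which encodes HP1 alpha, rose, while the most abundant genes not past the threshold were Cbx1 (-0.31) and Hmgn1 (0.17). The median of all 7228 genes was 0.33 with library sizes alone, 1.01 with UMIs per tube and 0.02 with loess offsets. With loess offsets the median of the S phase genes was 1.37 in place of 2.37, and that of the processing genes 0.35 in place of 0.62. The genes called higher, 3 replication-coupled, 4 replication-independent and 2 general chaperones, 7 processing genes and 5 chromatin protein genes, numbered 5, 7, 3, 8 and 6 with library sizes alone, 7, 10, 8, 12 and 9 with UMIs per tube, and 3, 3, 5, 6 and 5 with loess offsets. The genes called lower, 2 replication-coupled, 4 replication-independent and 3 general chaperones and 2 processing genes, numbered 1, 4, 2 and 0 with library sizes alone, 0, 3, 1 and 2 with loess offsets, and 0 in each list with UMIs per tube. The median of the general chaperones changed sign, to 0.04 with library sizes alone, 0.71 per tube and 0.20 with loess offsets. Of the S phase genes, 16 of 17 were called higher with library sizes alone and per tube, and 12 of 17 with loess offsets.

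**Figure D5:**
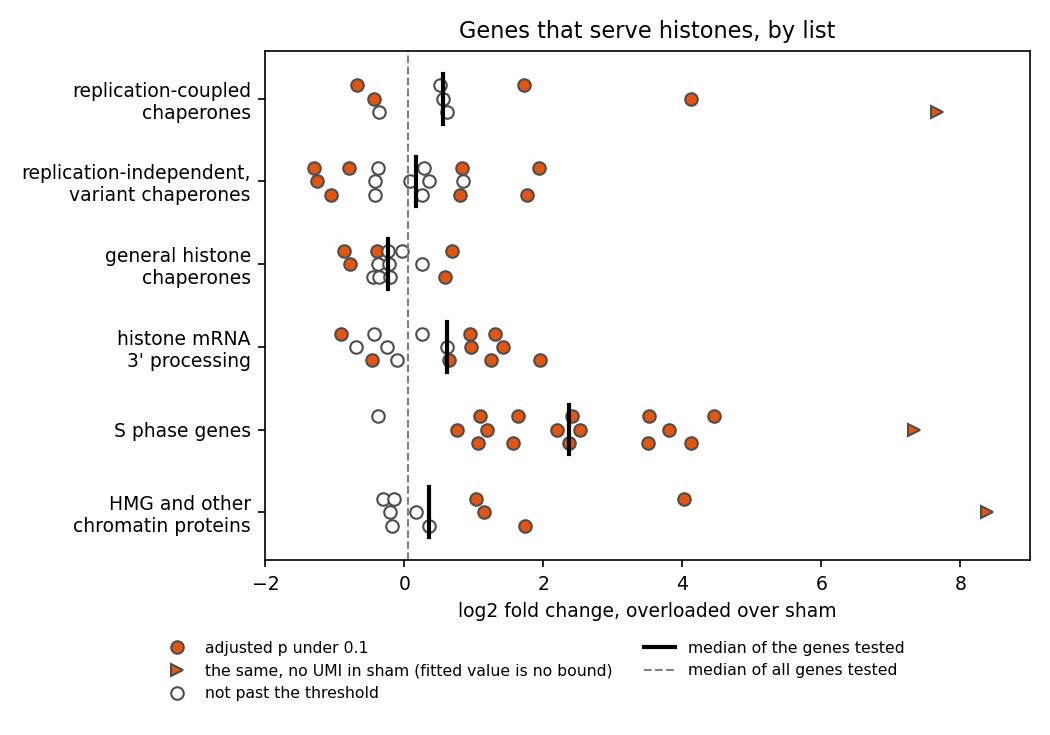
Log2 fold change of overloaded over sham for the tested genes of 6 lists of histone-related genes, with filled symbols for an adjusted p under 0.1; triangles mark genes with no UMI in sham, whose fitted value is no bound. Black bars are the medians of the tested genes, from -0.23 for the general chaperones to 2.37 for the S phase genes, and the dashed line is the median of all genes tested, 0.05.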

How the data were processed

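RNA-seq libraries (CEL-Seq2) were made from tubes of 100 sorted MuSCs, 2 sham and 2 overloaded. Per the submitters' processing notes and the paper's methods, the authors used UMI-tools (version 1.0.0), HISAT2 (version 2.1.0) on GRCm38, featureCounts (version 1.6.4) and DESeq2 (version 1.22.2), and deposited a count of UMIs per gene and library, not normalized. The annotation release, the strand setting and the treatment of reads that fit several genes are not given in the sources used here.

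Genes were kept by filterByExpr (minimum count 10, minimum total 15), scaled by TMM, and fitted with glmQLFit and glmQLFTest in edgeR (version 4.0.16, R version 4.3.3), with Benjamini-Hochberg adjustment over 7228 genes, a threshold of 0.1 and a prior count of 0.125. The common biological coefficient of variation was 9.50%. DESeq2 (version 1.42.0) and limma (version 3.58.1) served alternatives. Tables and figures used Python (version 3.11.15).

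Histone genes with at least 20 UMIs were named. Of each list, up to 4 called genes with the largest change, up to 2 abundant genes not past the threshold, and Slbp, Asf1b, Chaf1a, Nasp, Cenpa and Pcna were named. One gene that this rule names is not reported here. The members and lists were chosen with earlier results of these data known. Fitted log2 fold changes of genes with no sham UMI were not printed; their folds are against a floor of 3 UMIs over the group. These folds take the overloaded count as exact and are no strict lower bounds. Floors and intervals cover counting error only. Stem-loops and shared stretches of 50 bases were searched in GENCODE M21 transcripts, and every gene identifier of the table was in that annotation.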

Additional observations from a re-analysis of the deposited data

How the results depend on the processing

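There were 17 alternative settings of the fit. A prior count of 2 changed only the fold changes and left the p-values as they were, so it could not alter a call. The adjusted p of 0.05 reads the main fit at another threshold. The 2 clustered genes tested, H1f0 and H2afj were called higher under all 17 settings, and 2 to 3 clustered genes were called in each. The 1868 genes called higher and 1898 lower over the whole table became 762 and 1049 with DESeq2 and 4481 and 331 with UMIs per tube without scaling, where 6 variant genes were called higher in place of 3 and 0 lower in place of 3. The share of higher among all calls was 49.6%, and 66.6% with library sizes alone and 93.1% per tube. The count of 3 variant genes called lower became 1 with library sizes alone, loess offsets, DESeq2, no filter, an adjusted p of 0.05 or counts thinned to the smallest library. H2afy was at 0.17 with library sizes alone, 0.85 per tube and 0.064 with loess offsets on the log2 scale, and per tube H3f3b was at 0.017 and H2afz at 0.56. The cause of these changes was not tested. The difference between groups in the clustered share of histone UMIs was 8.44 percentage points without Hist1h2bc, in place of 12.6.

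Leaving out 1 library at a time, where the lone library left in a group is assumed to vary like the other group, gave 1360 to 1668 genes higher and 1489 to 1720 lower, 2 clustered genes higher, 2 to 3 variant genes higher, 1 to 2 lower, and a difference in share of 11.8 to 13.4 points. With the replicate number as a block, 25.0% of genes were called higher and 25.8% lower, and of the tested histone genes H2afz lost its call (adjusted p = 0.11, edgeR). Whether libraries with the same number came from 1 animal is not given in the sources used here, and they were not treated as pairs: their deviations from the group means had a correlation of -0.03 over genes, which are not independent.

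The depth sets a limit for most clustered genes, since 3 UMIs are 13.1 and 13.6 CPM in sham and 7.80 and 6.08 CPM in overloaded libraries.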
